A study of Mus musculus with 6 samples.

Results

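The enzymes described here are those that conjugate foreign and endogenous small molecules or act on alcohols, aldehydes, carbonyls and esters: UDP-glucuronosyltransferases (Ugt1 and Ugt2), cytosolic glutathione transferases (Gst), sulfotransferases (Sult), aldehyde dehydrogenases (Aldh), alcohol dehydrogenases (Adh), aldo-keto reductases of the AKR1 group (Akr1), carboxylesterases (Ces) and flavin monooxygenases (Fmo). They were chosen by gene symbol alone, without pseudogenes, which gave 125 genes among the 55416 gene identifiers of the tables. The families held 9 Ugt1, 10 Ugt2, 21 Gst, 21 Sult, 21 Aldh, 6 Adh, 15 Akr1, 15 Ces and 7 Fmo genes. They were followed across 3 groups of mouse small intestinal organoids, which are cultures of intestinal epithelium grown in a gel with IntestiCult medium. All organoids came from mice of 4 to 8 weeks that were Tg/Tg for Rosa26-rtTA, a transactivator that needs doxycycline, and Tg/Tg for Col1A1-TetO-OSKM, a cassette of the reprogramming factors Oct4, Sox2, Klf4 and Myc under its control. The control organoids carried both alleles and had no doxycycline, and the treated ones were kept for 3 days in doxycycline at 0.1 µg/ml (the lower dose) or 0.5 µg/ml (the higher dose). Each group had 2 libraries, and no group without the cassette received doxycycline here, so the factors and the drug itself cannot be told apart.

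Glucuronidation, sulfation and glutathione transfer attach a polar group to a drug, hormone, bile pigment or reactive by-product so that the cell can export it. Glucuronosyltransferases sit in the endoplasmic reticulum and use UDP-glucuronic acid, sulfotransferases are cytosolic and use activated sulfate (PAPS), and glutathione transferases use the tripeptide glutathione. Alcohol dehydrogenases, aldehyde dehydrogenases and aldo-keto reductases interconvert alcohols, aldehydes and acids, including retinol and retinoic acid, while carboxylesterases cut esters and flavin monooxygenases add oxygen to nitrogen or sulfur. In the small intestine many of these enzymes are most abundant in the absorptive enterocytes of the villus.

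The libraries held 45289760 to 72547738 expected counts, which are estimates of reads per gene. The factors followed the dose: Pou5f1, which encodes Oct4, lay at 0.243 and 0.140 CPM (counts scaled to the library's size) in control, at 136 and 141 with 0.1 µg/ml and at 486 and 512 with 0.5 µg/ml. Gene counts do not separate the cassette from the endogenous genes. Epcam, a defining epithelial marker, was at 588 to 784 CPM as group means. By the edgeR tests below it was lower than in control at both doses. Of 9 epithelial markers 5 were higher and 4 lower than in control at 0.5 µg/ml (34.4% and 33.1% of all tested genes). Krt8, for example, rose from a control mean of 1144 to 3102 CPM at that dose, and Cdx2 fell from 177.5 to 58.6. Fibroblast, smooth muscle, immune and endothelial markers were scarce. A list of 6 hepatocyte genes was not scarce, with summed CPM of 1657 and 1618 in control, 1056 and 1015 with 0.1 µg/ml and 444 and 402 with 0.5 µg/ml. Most of this was Cps1, with group means of 1602, 1023 and 420 CPM. The summed CPM of 8 fibroblast genes lay between 1.48 and 7.08 over all libraries, and that of 6 smooth muscle genes between 0.729 and 1.63. That of 6 immune genes lay between 4.43 and 15.0, with Adgre1 at 0 throughout. That of 5 endothelial genes lay between 0.709 and 4.90, with Cdh5 at 0 throughout. In the fibroblast, smooth muscle, immune and endothelial sums both libraries with 0.5 µg/ml lay above all others. The sources do not say whether libraries came from separate mice or cultures, so the p-values measure only the spread between these libraries, which may be technical. These are bulk libraries, in which fewer cells of a type and less RNA per cell cannot be told apart.

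As a whole, these enzymes held a smaller share of the transcriptome at the higher dose. Their summed level per gene length, in TPM (a share of all transcripts), was 7054 and 7795 in control, 8938 and 7851 with 0.1 µg/ml, and 5128 and 5311 with 0.5 µg/ml. Both libraries of the higher dose lay below all others, and lower-dose replicate 2 was close to control replicate 2. The sulfotransferase sum rose, with 63.4 and 77.3, then 155 and 124, then 168 and 185 TPM, but a single gene carried the level at 0.5 µg/ml. Sult2b1 was at 6.27 and 7.40, then 31.9 and 27.7, then 124 and 139 TPM. Without it, a choice made after its values were seen, the sum of the other sulfotransferases was 57.1 and 69.9, then 123 and 96.7, then 43.9 and 46.2 TPM, highest at the lower dose and below control at the higher. Flavin monooxygenases were also highest at the lower dose, with 21.0 and 22.8, then 38.1 and 32.3, then 16.9 and 14.7. Glutathione transferases made up the largest part, with 3108 and 3407 TPM in control, 4476 and 3876 with 0.1 µg/ml and 2795 and 2905 with 0.5 µg/ml.

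**Figure D1:**
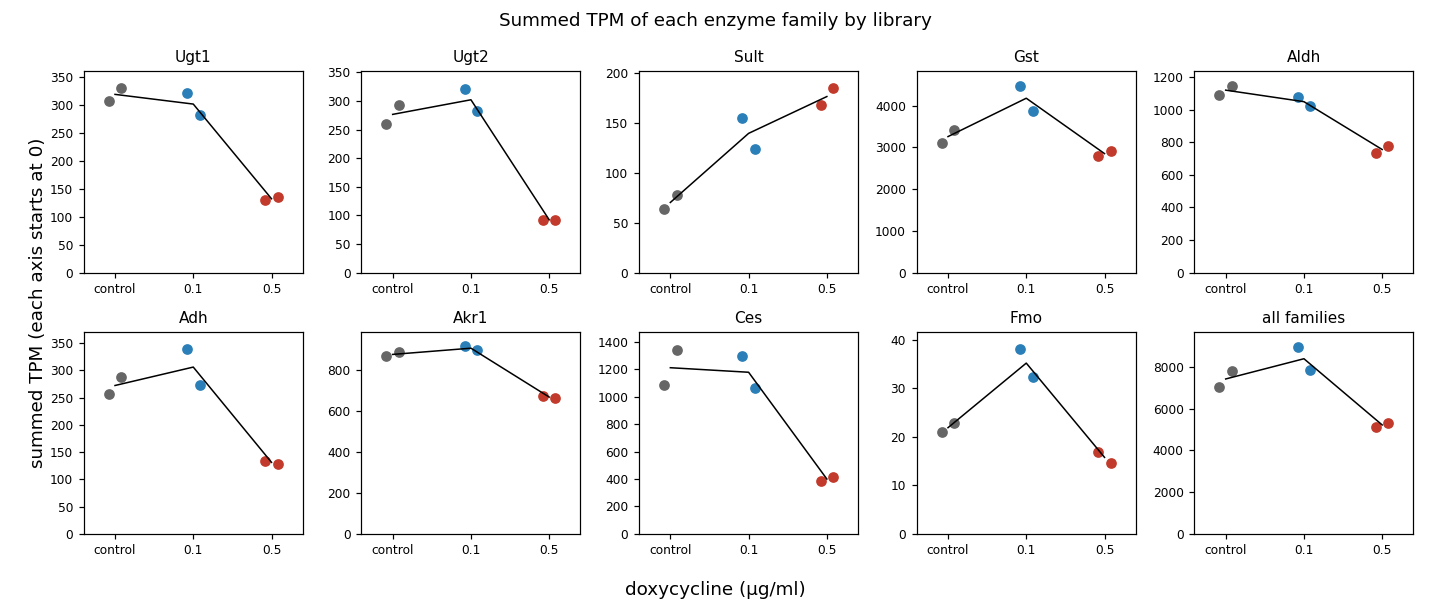
Summed TPM of each enzyme family (vertical axes, each starting at 0) against dose of doxycycline (µg/ml), with a point for each of the 2 libraries of a group and a line through the group means. The sulfotransferase sum rises from 63.4 and 77.3 to 168 and 185 across the doses, of which Sult2b1 makes up 124 and 139 at 0.5 µg/ml, while the sum over all families falls to 5128 and 5311 at 0.5 µg/ml.

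Of the 125 genes, 94 had enough counts to be tested with all other genes in an edgeR quasi-likelihood fit, and a gene was called at a Benjamini-Hochberg adjusted p under 0.05 over 16975 genes. With 0.1 µg/ml, 44 of the 94 were higher than in control (46.8%, against 20.8% of all tested genes) and 14 were lower (14.9%, against 13.8%). With 0.5 µg/ml, 25 were higher than in control (26.6%, against 34.4% of all tested genes) and 57 were lower (60.6%, against 33.1%). From 0.1 to 0.5 µg/ml, 17 were higher (18.1%, against 29.8%) and 67 were lower (71.3%, against 29.1%). Their median log2 fold change was 0.30 with 0.1 µg/ml and -0.55 with 0.5 µg/ml against control, and -1.02 between the doses, where the medians over all tested genes were 0.02, 0.00 and -0.02. The control libraries enter both comparisons with control, and the lower-dose libraries enter 2 of the 3.

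The count of 14 lower genes with 0.1 µg/ml dropped to 9 without control replicate 2 and to 9 without lower-dose replicate 2. Among those named here, this removed Ces2a (adjusted p 0.0821 and 0.0771), Ugt1a1 (0.0511 and 0.0512) and Ugt2b36 (0.0766 and 0.0816) in both cases, and Gstt1 (0.0581) without lower-dose replicate 2.

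The 31 untested genes were nearly silent. Of these, 18 had no count in any library, among them all 8 Sult2a genes, which encode hydroxysteroid and bile acid sulfotransferases, and 13 had some counts. The highest was Ugt2b1, with 40 counts over the 6 libraries together, followed by Sult6b1 with 36. Sulfotransferases made up 14 of the 31.

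**Figure D2:**
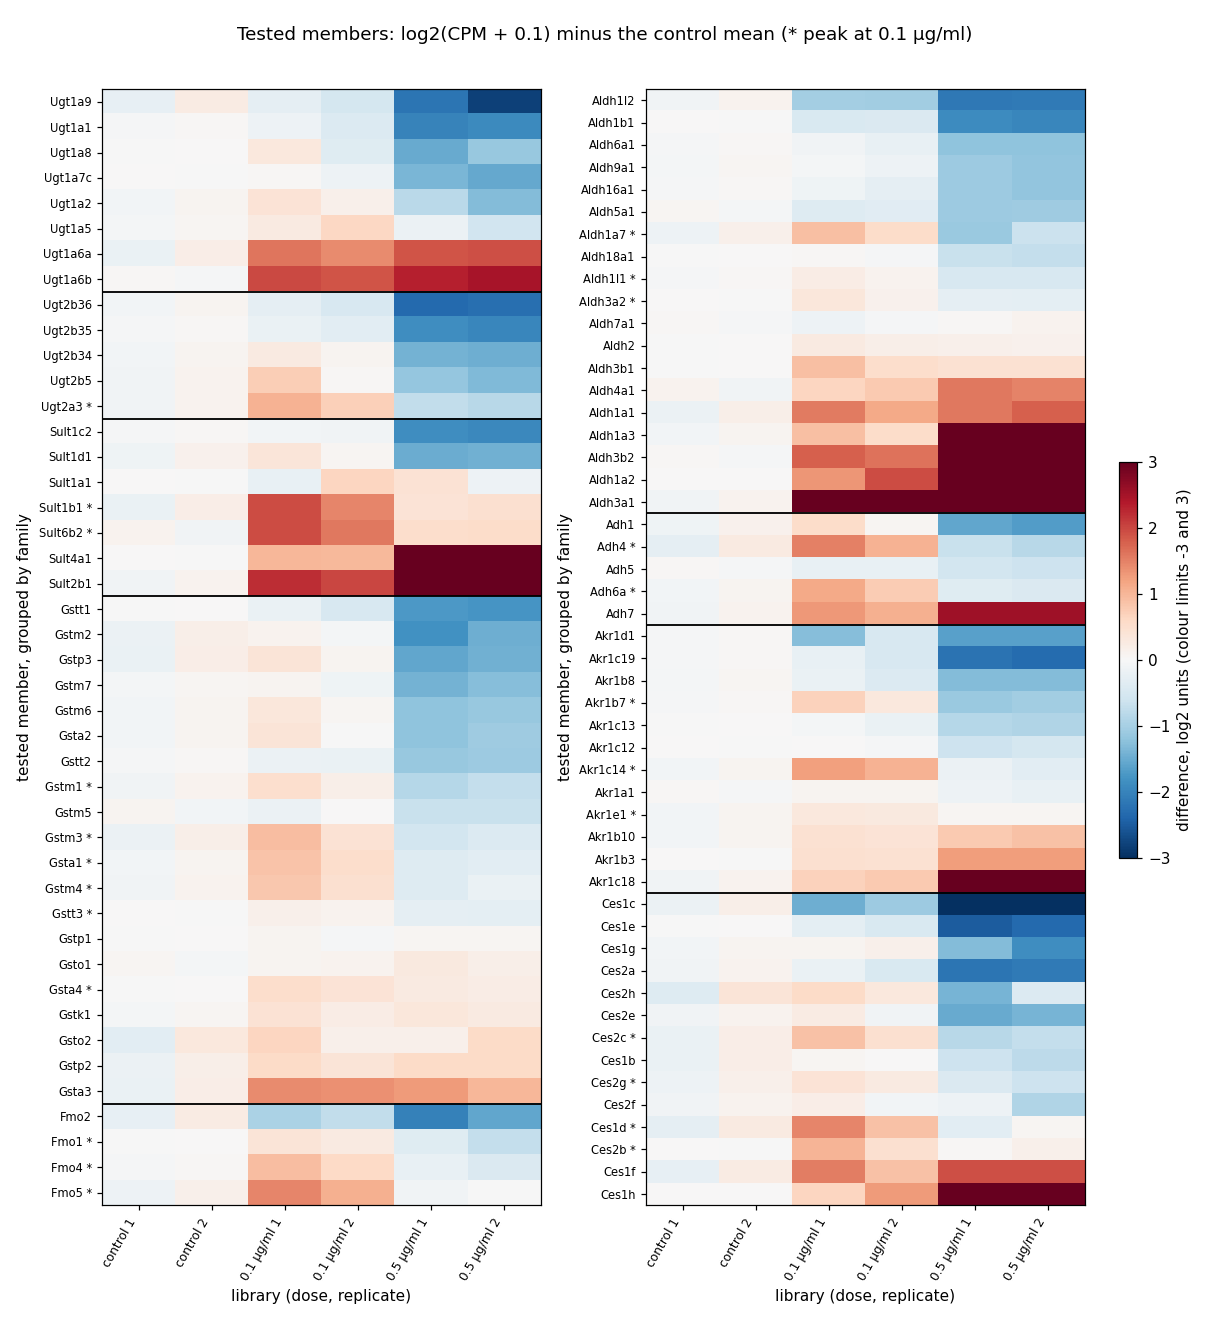
Each row is a tested enzyme gene grouped by family and each column a library; colour is log2(CPM + 0.1) minus the control mean, limited to -3 and 3, and an asterisk marks the 24 genes higher at 0.1 µg/ml than in both other groups. Blue fills most of the last columns (57 of 94 genes lower than control at 0.5 µg/ml), and the asterisked genes are red in the middle columns.

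The dose series was also searched for genes with a maximum at the lower dose, called when a gene was higher at 0.1 µg/ml than in control and lower at 0.5 than at 0.1 µg/ml by both edgeR tests. There were 24 such genes among the 94 (25.5%), against 3.10% of all tested genes (527 of 16975). By edgeR 0 of the 94 had the reverse pattern, a minimum at 0.1 µg/ml, which 0.960% of all tested genes had. The count was also 0 at unadjusted p under 0.05 and with DESeq2 and limma. The 24 were Adh4, Adh6a, Akr1b7, Akr1c14, Akr1e1, Aldh1a7, Aldh1l1, Aldh3a2, Ces1d, Ces2b, Ces2c, Ces2g, Fmo1, Fmo4, Fmo5, Gsta1, Gsta4, Gstm1, Gstm3, Gstm4, Gstt3, Sult1b1, Sult6b2 and Ugt2a3. They came from every family but Ugt1, which had 0 by each of these tools and at unadjusted p under 0.05: 6 of 20 tested Gst genes, 4 of 14 Ces, 3 of 4 Fmo, 3 of 12 Akr1, 3 of 19 Aldh, 2 of 5 Adh, 2 of 7 Sult and 1 of 5 Ugt2. Their level at 0.1 µg/ml was 1.10 to 3.50 times that of control, with a median of 1.62 (1.37 over all 527 genes), and 1.17 to 4.32 times that at 0.5 µg/ml, with a median of 2.24 (1.60). Adh4, Akr1c14, Ces1d, Fmo5, Sult1b1 and Sult6b2 exceeded both other groups at least 2-fold. At 0.5 µg/ml, 16 of the 24 were lower than in control and 3 (Gsta4, Sult1b1 and Sult6b2) were higher. Over all tested genes the shares were 33.1% and 34.4%. The 24 were chosen partly for being lower at 0.5 than at 0.1 µg/ml, and the shares among the 527 genes were not computed.

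**Figure D3:**
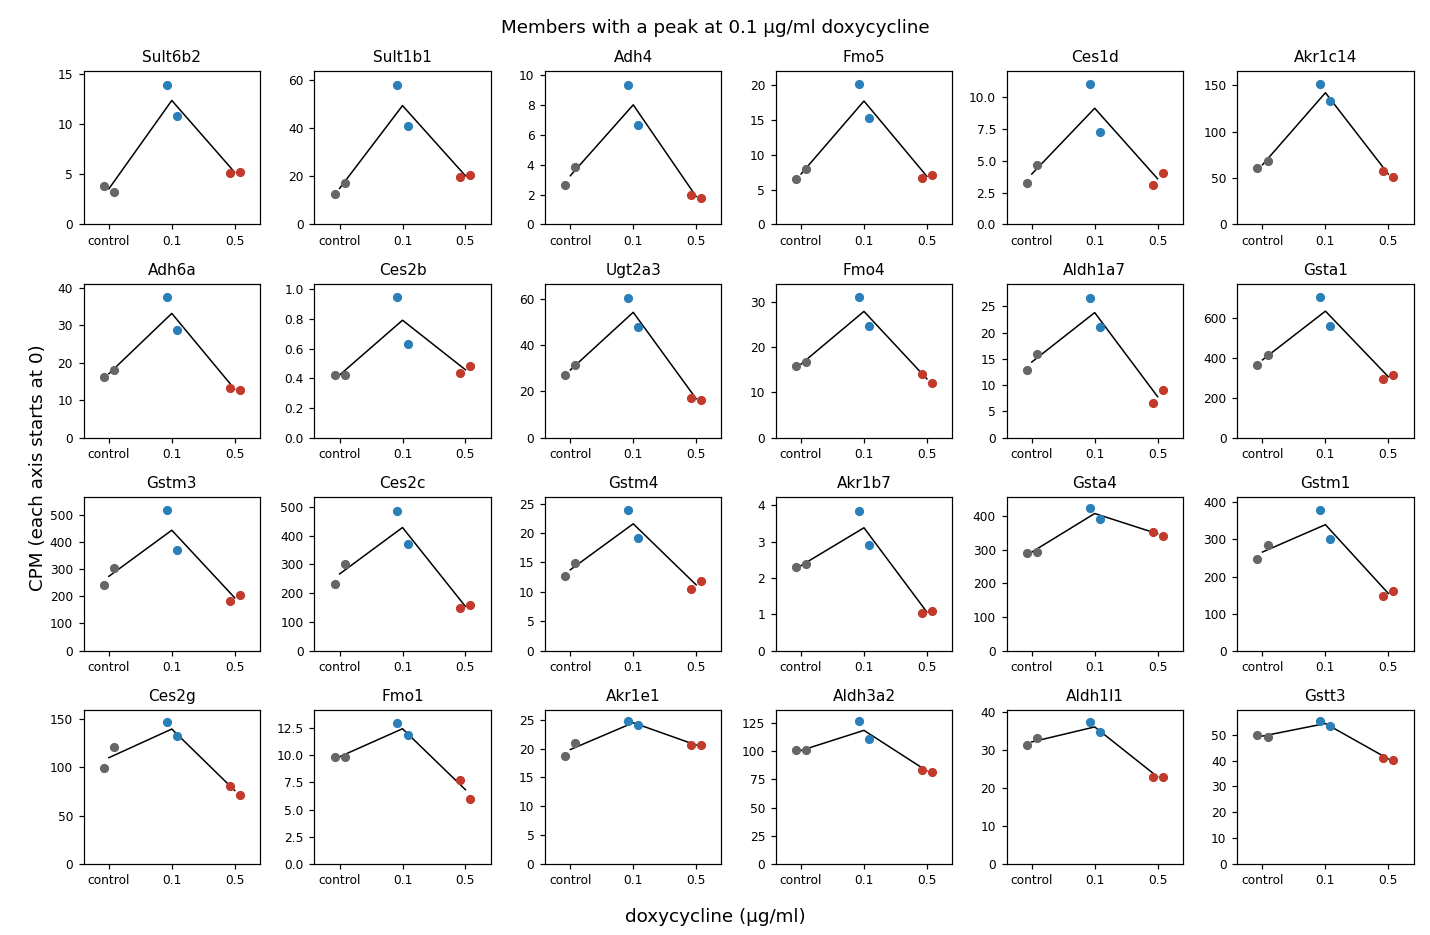
CPM of the 24 genes with a maximum at 0.1 µg/ml (vertical axes, each starting at 0) against dose of doxycycline, with a point per library and a line through the group means; panels are ordered by fold change from control to 0.1 µg/ml. Sult6b2 and Sult1b1 open the series with 3.50-fold and 3.31-fold, and Gstt3 closes it with 1.10-fold.

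How many genes passed depended on the libraries. Without lower-dose replicate 1 the count of maxima was 14, and the 10 genes lost were Akr1b7, Akr1e1, Aldh1a7, Aldh1l1, Aldh3a2, Ces2b, Ces2g, Fmo1, Gstm1 and Gstt3. Without control replicate 1 it was 16, with 9 of the 24 lost: Aldh1a7 passed and the other genes of that list did not. Without control replicate 2, Akr1b7, Aldh1l1, Aldh3a2, Ces2b, Fmo1 and Gstt3 were lost, and without lower-dose replicate 2 Fmo1 and Gstt3 were lost while 7 genes joined. Leaving out either higher-dose library removed Akr1b7, Aldh1l1, Ces2b and Gstt3. Tests with limma on log2(TPM + 1) gave 14 maxima among 82 tested genes, and 8 among 94 when no filter on low values was used. Adh6a, Akr1c14, Fmo4, Fmo5, Gsta4, Sult1b1, Sult6b2 and Ugt2a3 passed under the main setting and each of the 13 alternatives. All 24 genes were higher in lower-dose replicate 1 than in replicate 2.

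Most of the absorptive enterocyte markers examined had the same pattern. A list of 11 held 7 genes with a maximum at 0.1 µg/ml (63.6%, against 3.10% of all tested genes). They were Alpi, Apoa1, Apoa4, Rbp2, Sis, Slc5a1 and Mttp. Fabp1, Fabp2 and Lct were not called at 0.1 µg/ml (edgeR adjusted p 0.195, 0.124 and 0.216) and were lower than in control at 0.5 µg/ml. Anpep went the other way at 0.1 µg/ml, with group means of 94.5, 53.5 and 19.4 CPM, lower than in control at both doses (0.00107 and 4.27e-07). The summed CPM of the 11 was 2389 and 2827 in control, 4361 and 3330 with 0.1 µg/ml, and 1584 and 1599 with 0.5 µg/ml. The 24 enzyme genes summed to 1866 and 2139, then 3367 and 2718, then 1541 and 1578 CPM, a shape fixed by their choice. Within the lower dose, replicate 1 was the higher library for all 11 markers as well. The part of enterocyte abundance in the maxima was not tested. The other tested enzymes summed to 6366 and 6740, then 6760 and 6079, then 3965 and 3934 CPM. Their different shape follows from the choice, since the genes with a maximum were taken out of them.

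**Figure D4:**
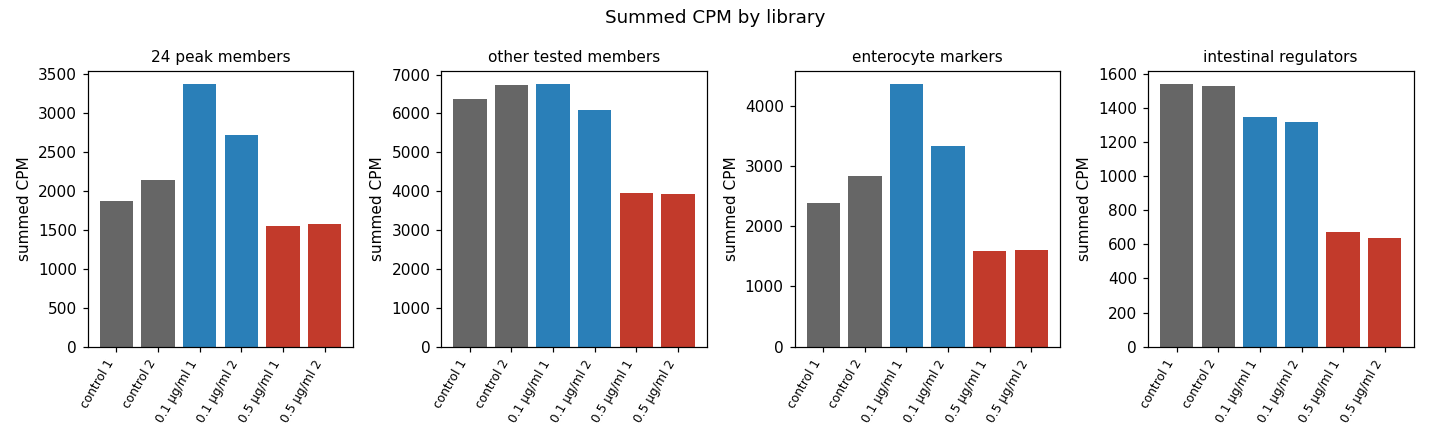
Summed CPM in each of the 6 libraries (bars, axes starting at 0) for the 24 enzymes with a maximum at 0.1 µg/ml, the other tested enzymes, 11 enterocyte markers and 15 nuclear receptors and intestinal regulators. The first panel is highest in the lower-dose libraries (3367 and 2718) because its genes were chosen for this. The enterocyte markers are also highest there (4361 and 3330), whereas the regulators fall at each dose, to 675 and 639.

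Markers of other epithelial cell types also differed between the groups. Beside their calls against control stand the shares over all tested genes. These were 20.8% higher and 13.8% lower at 0.1 µg/ml, and 34.4% higher and 33.1% lower at 0.5 µg/ml. The summed CPM of 5 crypt base stem cell genes was 712 and 522 in control, 171 and 263 with 0.1 µg/ml and 84.3 and 88.6 with 0.5 µg/ml. Of the 5, Ascl2 was not called at 0.1 µg/ml and was higher than in control at 0.5 µg/ml (5.60 and 9.18 CPM; edgeR adjusted p 1.20e-04), and the other 4 were lower at both doses. All 5 Paneth and all 5 enteroendocrine markers were lower than in control at both doses, and 5 of 7 goblet markers were lower at both. The goblet markers Clca1 and Zg16 went another way. Clca1 was higher than in control at both doses (1.58-fold and 1.91-fold). Zg16 had a maximum at 0.1 µg/ml, with group means of 6.39, 18.9 and 7.57 CPM. Of 5 tuft cell markers, 4 were higher at both doses and Trpm5, the taste channel of these cells, was lower. The part of these shifts in the falls and rises below was not tested.

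Among glucuronosyltransferases, the abundant forms were lower at 0.5 µg/ml and the Ugt1a6 pair was higher. Ugt1a1, the enzyme that conjugates bilirubin, was at 327 and 348 CPM in control, 302 and 254 with 0.1 µg/ml and 84.2 and 89.5 with 0.5 µg/ml. The higher-dose libraries lay far below the rest, and its log2 fold change at 0.5 µg/ml was -1.96 ± 0.08 (SE; edgeR adjusted p 1.46e-08). Ugt1a7c, the other abundant gene of the cluster, read 272 and 272, then 279 and 244, then 105 and 94.2 CPM. It was not called at 0.1 µg/ml (adjusted p 0.569) and fell between the doses (-1.40 ± 0.07; 1.78e-07). Ugt1a6a, whose product prefers small flat phenols, was at 12.4 and 16.2 CPM in control, 43.5 and 38.2 with 0.1 µg/ml and 52.9 and 54.3 with 0.5 µg/ml. Its neighbour and close copy Ugt1a6b read 7.23 and 6.88, then 28.3 and 26.5, then 35.7 and 39.7 CPM. Neither gene had overlapping groups. The log2 fold changes at 0.5 µg/ml were 1.91 ± 0.11 (adjusted p 1.70e-07) and 2.42 ± 0.08 (3.19e-09). Ugt1a9, at lower level, read 5.96 and 8.48, then 5.89 and 4.89, then 1.49 and 0.940 CPM and was 6.02-fold lower than control at 0.5 µg/ml (7.41e-06). In all, 2 of 8 tested Ugt1 genes were higher and 5 lower than in control at 0.5 µg/ml (25% and 62.5%, against 34.4% and 33.1% of all tested genes). Ugt1a genes have separate first exons and share the rest, and the counting program divided shared reads by estimate, so their single values are uncertain: no tested Ugt1a gene had whole-number counts in every library.

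All 5 tested Ugt2 genes were lower than in control at 0.5 µg/ml, beside 33.1% of all tested genes. Ugt2b34, the most abundant of them by TPM, was at 460 and 509 CPM in control, 586 and 515 with 0.1 µg/ml and 180 and 175 with 0.5 µg/ml (log2 fold change at 0.5 µg/ml -1.45 ± 0.07; edgeR adjusted p 5.21e-08). Ugt2b35, the next by TPM, was at 125 and 130, then 111 and 103, then 34.9 and 33.0 CPM and fell at both steps. Ugt2b36 fell from 13.1 and 14.6 to 2.66 and 2.80 CPM, 5.07-fold lower than control. Ugt2a3, known in human as a bile acid glucuronosyltransferase, had a maximum, with 27.0 and 31.4, then 60.5 and 47.9, then 17.3 and 16.2 CPM. Its 3 groups did not overlap, and it was 1.86-fold higher at 0.1 µg/ml than in control (edgeR adjusted p 0.000166) and 3.24-fold lower at 0.5 than at 0.1 µg/ml (1.14e-06).

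Promoter windows are shown for Ugt1a1, which fell, and Ugt1a6a, which rose, because the 2 start sites lie on the same strand within the same cluster. The windows are RefSeq sequence of mouse build GRCm38.p6, from 250 bases before to 50 after the start, at chr1:88211709-88212008 for Ugt1a1 and chr1:88134559-88134858 for Ugt1a6a, both on the + strand. Capitals mark the letters CAAAGNNCA of an HNF4 site in Ugt1a6a. HNF4 factors are transcription factors of intestinal and liver epithelium. The Ugt1a1 window holds no such letters on either strand.
Ugt1a1: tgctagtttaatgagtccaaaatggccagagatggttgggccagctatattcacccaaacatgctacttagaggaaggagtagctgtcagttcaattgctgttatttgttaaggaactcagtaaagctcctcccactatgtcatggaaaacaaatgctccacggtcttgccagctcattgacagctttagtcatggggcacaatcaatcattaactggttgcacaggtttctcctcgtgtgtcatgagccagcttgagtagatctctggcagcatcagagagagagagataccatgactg
Ugt1a6a: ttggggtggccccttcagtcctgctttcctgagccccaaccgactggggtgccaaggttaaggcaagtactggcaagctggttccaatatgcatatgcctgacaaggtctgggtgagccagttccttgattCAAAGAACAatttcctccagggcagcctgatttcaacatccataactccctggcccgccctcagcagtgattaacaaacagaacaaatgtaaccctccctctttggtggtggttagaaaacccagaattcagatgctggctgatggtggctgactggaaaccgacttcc
Windows were found for 104 of the 125 genes. Searched on both strands, the HNF4 letters stood in 6.36% of all 32851 windows and in those of 9 of the 104 genes. A match of letters describes the window and does not show binding.

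The sulfotransferases held both strong rises and clear maxima. Sult2b1, which sulfates cholesterol and is best known from skin, was at 5.29 and 6.04 CPM in control, 26.8 and 23.1 with 0.1 µg/ml and 112 and 121 with 0.5 µg/ml. The groups were far apart, and it was 4.42-fold higher than control at 0.1 µg/ml (edgeR adjusted p 1.99e-07) and 20.6-fold higher at 0.5 µg/ml (2.53e-10). Sult4a1, a brain form with little known activity, read 1.22 and 1.18, then 2.47 and 2.43, then 12 and 12 CPM and was 10.04-fold higher at 0.5 µg/ml (8.95e-09). Sult1b1, which sulfates phenols and thyroid hormones and is a main intestinal form, had its maximum at the lower dose, with 12.8 and 17.1, then 57.9 and 40.7, then 19.8 and 20.6 CPM. All 3 of its groups were separate. It was 3.31-fold higher than control at 0.1 µg/ml (adjusted p 3.83e-05) and 2.45-fold lower at 0.5 than at 0.1 µg/ml (8.40e-05). Its excess over control at 0.5 µg/ml, 1.35-fold, lay at the threshold (adjusted p 0.0499) and was not called without control replicate 1 (0.280) or without either higher-dose library (0.121 and 0.183). Sult6b2 had a similar course at lower level, with 3.83 and 3.27, then 13.9 and 10.8, then 5.16 and 5.24 CPM. Its excess at 0.5 µg/ml was 1.46-fold (adjusted p 0.00934) and was not called without control replicate 2 (0.0705) or higher-dose replicate 2 (0.0529). Sult1c2 fell from 14.5 and 15.4 in control to 4.03 and 3.84 CPM at 0.5 µg/ml, 3.81-fold lower.

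The genes that supply and reuse the sulfate group were mostly lower at 0.5 µg/ml. Of 9 tested, 7 were lower than in control and 1 was higher, beside 33.1% and 34.4% over all tested genes. Papss2, a synthase of the activated sulfate PAPS, had the same maximum as Sult1b1, with group means of 23.7, 42.7 and 17.9 CPM (edgeR adjusted p 0.000373 for the rise and 1.28e-05 for the fall). Papss1, the other synthase, was at 121, 104 and 63.4 CPM and lower at both doses. For glucuronidation, Ugdh, which makes UDP-glucuronic acid, was at 255, 276 and 135 CPM. Of the 5 supply genes, 3 were lower and 1 higher than in control at 0.5 µg/ml, beside the same shares over all tested genes.

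Glutathione transferases were the most abundant of these enzymes. Gstp1, of the pi class, had the highest mean TPM of all 125 genes at 816, and no test called it in any comparison: it read 371 and 374, then 392 and 363, then 388 and 388 CPM. Reads of Gstp1 can be shared with its close copies. Gsta1, of the alpha class, came next by TPM and had a maximum, with 367 and 414, then 708 and 562, then 296 and 315 CPM. Its groups did not overlap. It was 1.63-fold higher than control at 0.1 µg/ml (edgeR adjusted p 0.000410) and 2.08-fold lower at 0.5 than at 0.1 µg/ml (1.12e-05). Gsta4, which clears the lipid peroxidation product 4-hydroxynonenal, moved less but with narrow spread, from 292 and 294 to 424 and 391 and then 353 and 342 CPM. It stayed 1.19-fold above control at 0.5 µg/ml (adjusted p 0.00105). Gsta3 rose from 18.9 and 24.9 to 58.4 and 55.9 CPM and read 52.3 and 43.5 at 0.5 µg/ml, where the step between doses was not called (adjusted p 0.0717), although it was without control replicate 1, control replicate 2 or higher-dose replicate 1 (0.0129 to 0.0331).

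The 7 tested genes of the mu class lie side by side in RefSeq order. At 0.5 µg/ml 6 of them were lower than control, beside 33.1% of all tested genes. Gstm1, Gstm3 and Gstm4 had a maximum. Gstm3 was at 242 and 305, then 517 and 370, then 185 and 204 CPM, and Gstm1 was at 248 and 284, then 380 and 300, then 148 and 161 CPM. In both genes lower-dose replicate 1 was the highest library and the higher-dose libraries were the lowest. For Gstm1 the rise at 0.1 µg/ml (1.28-fold; edgeR adjusted p 0.0234) was not called without control replicate 1 (0.148) or lower-dose replicate 1 (0.212). For Gstm3 the rise was 1.62-fold (0.00494), and the fall below control at 0.5 µg/ml (1.41-fold; 0.0134) was not called without control replicate 2 (0.0725) or higher-dose replicate 1 (0.0789). Of the theta class, Gstt1 was lower at both doses, with 25.7 and 26.0, then 22.6 and 18.6, then 7.70 and 7.54 CPM, 3.39-fold lower than control at 0.5 µg/ml (1.47e-07). Gstt3 had the smallest maximum, with 50.1 and 49.0, then 55.5 and 53.3, then 41.0 and 40.4 CPM, a rise of 1.10-fold (0.0422) that was lost whichever library was left out (0.104 to 0.310). Gstm4 was at 13.8 ± 1.57, 21.6 ± 3.39 and 11.2 ± 0.933 CPM (mean ± SD, n = 2), without overlap between groups, and was 1.57-fold higher than control at 0.1 µg/ml (0.00213). Gstp3, a neighbour of Gstp1, read 13.2 and 17.1, then 19.7 and 15.8, then 5.06 and 5.43 CPM and fell 3.39-fold between the doses (6.06e-06). Near-identical mu and alpha copies share reads, and Gstm1, Gstm3 and Gsta1 did not have whole-number counts in every library.

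Of 14 genes of glutathione synthesis and recycling, 3 were higher and 3 lower than in control at 0.5 µg/ml. Each is 21.4%, against 34.4% and 33.1% of all tested genes. A maximum at 0.1 µg/ml was found in 4 of the 14 (28.6%, against 3.10%): Gss, Gclm, Ggt1 and Cndp2. Gss, glutathione synthetase, had group means of 107, 141 and 114 CPM, and Ggt1, which cuts glutathione outside the cell, had means of 8.74, 18.0 and 8.82. Gclc, the catalytic part of the rate-limiting enzyme, was at 63.5, 61.5 and 48.4 CPM and lower at 0.5 µg/ml. Of the membrane-bound transferases, Mgst1 fell from 181 to 55.5 CPM at 0.5 µg/ml and Mgst3 rose from 138 to 255.

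Genes that export or cut conjugates changed in both directions, with 5 of 11 higher and 5 lower than in control at 0.5 µg/ml, beside shares of 34.4% and 33.1% over all tested genes. Abcc2, the apical pump for glucuronides and glutathione conjugates, was at 271, 261 and 94.5 CPM as group means, and Abcg2, an apical pump for sulfates, at 42.2, 41.2 and 19.2. Abcc1, which exports glutathione conjugates, rose from 51.8 to 81.9 and 178 CPM, and Abcc5 from 18.6 to 43.6 and 77.1. Abcc3, a basolateral exporter of glucuronides, had a maximum at 76.2, 140 and 104.

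The alcohol dehydrogenases lie in a single run in RefSeq order and split by dose. Adh1, the classical ethanol dehydrogenase, which also oxidises retinol, was at 137 and 162 CPM in control, 217 and 155 with 0.1 µg/ml and 50.5 and 46.6 with 0.5 µg/ml. The control and lower-dose libraries overlapped, and the fall from 0.1 to 0.5 µg/ml was 3.84-fold (edgeR adjusted p 2.29e-06). Adh7, the form of stomach and oesophagus, rose at each dose, with 1.296 and 1.496, then 3.57 and 3.04, then 8.54 and 8.55 CPM, 6.11-fold higher than control at 0.5 µg/ml (1.52e-07). Adh4 and Adh6a had maxima. Adh4 was at 2.65 and 3.87, then 9.32 and 6.69, then 1.99 and 1.75 CPM, and Adh6a at 16.1 and 17.9, then 37.4 and 28.8, then 13.2 and 12.6. Their fall below control at 0.5 µg/ml was called (adjusted p 0.0125 and 0.0143) but not without control replicate 2 (0.0822 and 0.0563) or higher-dose replicate 2 (0.0758 and 0.0668). Adh5, which oxidises formaldehyde bound to glutathione, fell at both steps, from 135 and 130 to 113 and 113 and then 90.8 and 86.3 CPM.

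Promoter windows of Adh7, with its steady rise, and Adh6a and Akr1c14, with maxima, are shown so that the courses can be set beside the sequence. They are RefSeq windows of GRCm38.p6 on the + strand, at chr3:138217523-138217822, chr3:138313036-138313335 and chr13:4059341-4059640. Capitals mark matches on either strand, and no marked match overlaps another. The letters of the TATA core were TATAAA. Those of the core bound by the aryl hydrocarbon receptor (AHR) were GCGTG. An antioxidant response element was searched as TGACNNNGC and an HNF4 site as CAAAGNNCA.
Adh7: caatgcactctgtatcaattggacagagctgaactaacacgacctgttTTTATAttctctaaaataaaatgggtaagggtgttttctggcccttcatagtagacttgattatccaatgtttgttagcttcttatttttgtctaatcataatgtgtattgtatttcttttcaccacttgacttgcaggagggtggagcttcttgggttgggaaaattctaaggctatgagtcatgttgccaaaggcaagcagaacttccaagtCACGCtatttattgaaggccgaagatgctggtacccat
Adh6a: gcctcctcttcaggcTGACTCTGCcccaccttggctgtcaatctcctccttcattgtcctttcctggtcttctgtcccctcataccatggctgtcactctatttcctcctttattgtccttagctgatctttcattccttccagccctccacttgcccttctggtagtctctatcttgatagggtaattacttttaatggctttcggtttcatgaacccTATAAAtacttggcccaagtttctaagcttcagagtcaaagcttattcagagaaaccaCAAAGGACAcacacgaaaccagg
Akr1c14: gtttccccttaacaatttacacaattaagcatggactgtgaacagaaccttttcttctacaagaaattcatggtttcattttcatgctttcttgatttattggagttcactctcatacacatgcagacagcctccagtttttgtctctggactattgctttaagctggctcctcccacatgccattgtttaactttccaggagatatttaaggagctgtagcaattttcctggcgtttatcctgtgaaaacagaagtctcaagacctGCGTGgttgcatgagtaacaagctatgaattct
The AHR core stood in 32.4% of all 32851 windows and in windows of 5 of the 20 genes with a maximum that had a window. The antioxidant response element stood in 12.4% of all windows and in 1 of those 20 genes, Adh6a, and the HNF4 letters in 3 of them, Adh4, Adh6a and Sult1b1. TATAAA stood in 13.6% of all windows and in 5 of the 20.

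Of 19 tested aldehyde dehydrogenases, 8 were higher than in control at 0.5 µg/ml (42.1%, against 34.4% of all tested genes). The 10 that were lower made up 52.6%, against 33.1%. Aldh3a1, best known from the cornea, had 3 counts in the control libraries together, 0.0203 and 0.0399 CPM, and then read 21.9 and 21.5 CPM with 0.1 µg/ml and 154 and 168 with 0.5 µg/ml. The ratio to control was 722 (95% exact interval 247 to 3503) and 5368 (1836 to 26030); these intervals cover counting error only. Aldh3b2, a fatty aldehyde dehydrogenase, was at 0.750 and 0.698, then 2.77 and 2.43, then 14 and 13.6 CPM, 19.0-fold higher than control at 0.5 µg/ml (edgeR adjusted p 4.05e-09). Of the retinaldehyde dehydrogenases, Aldh1a1 rose from 29.1 and 37.6 to 97.7 and 73.0 and read 99.6 and 116 CPM at 0.5 µg/ml. The groups at the 2 doses were close, and that step was not called (adjusted p 0.0671), although it was without control replicate 1 (0.0270), control replicate 2 (0.0360) or lower-dose replicate 1 (0.00668). Aldh1a3 was at 0.203 and 0.239, then 0.497 and 0.367, then 2.89 and 3.66 CPM, with only the higher dose called against control (14.7-fold; 1.05e-06). Aldh1a2 had no count in control, 0.152 and 0.285 CPM with 0.1 µg/ml and 1.01 and 1.32 with 0.5 µg/ml, at least 19.3-fold higher at 0.5 µg/ml when control was set to 3 counts per library.

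Aldh1b1, a mitochondrial acetaldehyde dehydrogenase and the most abundant Aldh gene by mean TPM, fell from 718 and 718 CPM to 522 and 531 and then to 193 and 185. Its log2 fold change at 0.5 µg/ml was -1.92 ± 0.04 (edgeR adjusted p 2.30e-10). Aldh1l2, the mitochondrial 10-formyltetrahydrofolate dehydrogenase, fell at both steps, with 35.4 and 40.9, then 18.7 and 18.4, then 8.52 and 8.67 CPM. Aldh5a1, the succinic semialdehyde dehydrogenase, also fell at both steps, with 58.0 and 54.2, then 42.6 and 44.4, then 26.3 and 26.9 CPM. Aldh4a1, of proline breakdown, went the other way, with 6.42 and 5.49, then 9.31 and 10.3, then 17.9 and 17.0 CPM. The groups of these 3 genes did not overlap. The cytosolic relative of Aldh1l2, Aldh1l1, read 31.2 and 33.0, then 37.4 and 34.6, then 22.9 and 22.9, a maximum whose rise of 1.12-fold was called at an adjusted p of 0.0439 and was lost without any library but lower-dose replicate 2 (0.0672 to 0.362). Aldh1a7 (12.8 and 16.0, then 26.6 and 21.0, then 6.53 and 9.05 CPM) had a larger maximum, 1.66-fold over control, which was not called without lower-dose replicate 1 (0.0571). Aldh3a2, the fatty aldehyde dehydrogenase of the endoplasmic reticulum, read 100.9 and 100.8, then 127 and 111, then 83.3 and 81.9 CPM. Its rise was lost without control replicate 1 (0.0586), control replicate 2 (0.0621) or lower-dose replicate 1 (0.153). Aldh2, the main acetaldehyde dehydrogenase and the second Aldh gene by mean TPM, lay within 204 to 248 CPM in all libraries and was called higher than control at 0.1 µg/ml (log2 fold change 0.22; adjusted p 0.00327). Its 1.10-fold excess over control at 0.5 µg/ml (0.0175) was lost without any control or higher-dose library (0.0697 to 0.123) and turned to -0.019 on the log2 scale when TPM were tested with limma.

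The aldo-keto reductases held strong changes in both directions within the Akr1c cluster. Akr1c14, a 3-alpha-hydroxysteroid dehydrogenase, had the clearest maximum of its family, with 60.2 and 68.2, then 151 and 132, then 57.1 and 51.3 CPM. The lower-dose libraries lay above all others, 2.21-fold against control (edgeR adjusted p 4.99e-06) and 2.62-fold against 0.5 µg/ml (5.25e-07). Its small deficit at 0.5 µg/ml against control (1.19-fold; 0.0244) was lost without control replicate 2 (0.0993) or higher-dose replicate 2 (0.133). Akr1c19 fell from 93.4 and 97.9 to 81.3 and 68.2 and then to 20.6 and 19.2 CPM, 4.82-fold lower than control (8.98e-09). Akr1c18, the 20-alpha-hydroxysteroid dehydrogenase that inactivates progesterone, had 3 control counts and reached 1.17 and 1.15 CPM at 0.5 µg/ml, a ratio of 38.4 (95% exact interval 12.8 to 189). At 0.1 µg/ml its ratio was 3.82 (1.07 to 20.7), and that call (adjusted p 0.0495) was lost whichever library was left out (0.0886 to 0.246). Akr1b3, the aldose reductase, rose at both steps, with 47.8 and 46.6, then 65.8 and 65.2, then 114 and 112 CPM, while Akr1a1, the most abundant aldo-keto reductase by TPM, lay between 344 and 426 CPM and was lower at 0.5 µg/ml than in control (log2 fold change -0.19; 0.00260). Akr1c13, the next by TPM, was at 157 and 159, then 151 and 137, then 87.6 and 84.5 CPM and fell between the doses (1.67-fold; 1.72e-06). Akr1b7 (2.29 and 2.39, then 3.85 and 2.92, then 1.03 and 1.09 CPM) and Akr1e1 (18.7 and 20.9, then 24.8 and 24.1, then 20.6 and 20.6 CPM) had small maxima, 1.46-fold and 1.24-fold over control. The rise of Akr1b7 (0.0376) was called without lower-dose replicate 2 and lost without any other library (0.0612 to 0.337), and that of Akr1e1 (0.00559) was lost without control replicate 1 (0.0527) or lower-dose replicate 1 (0.0523).

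At 0.5 µg/ml 8 of 14 tested carboxylesterases were lower than in control (57.1%, against 33.1% of all tested genes). Another 2 were higher (14.3%, against 34.4%), and the family's median log2 fold change was -0.77. Ces2a, the most abundant of them by mean TPM, was at 802 and 935 CPM in control, 759 and 627 with 0.1 µg/ml and 191 and 198 with 0.5 µg/ml, 4.47-fold lower than control (edgeR adjusted p 3.01e-08). Ces2e was at 379 and 432, then 479 and 379, then 143 and 154 CPM. Both genes dropped mainly between the 2 doses. Ces1e (27.6 and 28.1, then 22.6 and 20.3, then 4.86 and 5.49 CPM) and Ces1c (4.50 and 5.82, then 1.79 and 2.34, then 0.527 and 0.460 CPM) fell at both steps and were 5.37-fold and 10.5-fold lower than control at 0.5 µg/ml. Against this, Ces1f rose from 9.99 and 14.3 to 35.0 and 22.0 and then to 46.1 and 45.6 CPM, and its step between doses (1.59-fold; adjusted p 0.0114) was lost without either higher-dose library (0.0528 and 0.0537). Ces2c had a maximum at high level, with 232 and 302, then 487 and 369, then 148 and 160 CPM, and Ces1d, a lipid hydrolase, a maximum at low level, with 3.24 and 4.69, then 11 and 7.28, then 3.12 and 4.07 CPM. In both the lower-dose libraries lay above all others. Ces2g read 98.8 and 121, then 146 and 133, then 80.7 and 71.2 CPM, 1.27-fold over control at 0.1 µg/ml (0.0181), which was lost without control replicate 1 (0.117) or lower-dose replicate 1 (0.141). Ces2b stayed under 1 CPM, from 0.419 to 0.952. Its 1.91-fold rise (0.0375) was lost without any library but lower-dose replicate 2 (0.0675 to 0.331).

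Among flavin monooxygenases, 3 of the 4 tested genes had a maximum. Fmo5, an oxygenase of ketones as well as drugs, was at 6.50 and 7.98, then 20.1 and 15.3, then 6.67 and 7.14 CPM. It was 2.46-fold higher at 0.1 µg/ml than in control (edgeR adjusted p 9.55e-05), and its control and higher-dose libraries overlapped. Fmo4 was at 15.9 and 16.6, then 31.2 and 24.8, then 14 and 12 CPM. Its deficit at 0.5 µg/ml against control (1.25-fold; adjusted p 0.0314) was lost without control replicate 2 (0.0746) or higher-dose replicate 2 (0.177). Fmo1, at 9.87 and 9.87, then 13 and 11.9, then 7.70 and 5.97 CPM, rose by 1.26-fold with an adjusted p of 0.0449, which was lost without any control or lower-dose library (0.0697 to 0.251).

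Many of these genes lie side by side, and some of these runs held changes in opposite directions. In RefSeq order, 86 of the 125 genes fall in 14 runs of at least 3. The Sult2a run had 0 tested genes, so it could hold no called change. The Aldh3b run and the Sult1b to Sult1e run had 2 tested genes each. In 7 of the 14, at least 1 gene was higher and at least 1 lower than in control at 0.5 µg/ml: the Ugt1a, Akr1c, Gstp, Adh, Sult1b to Sult1e, Akr1b and Ces1 runs. The shares over all tested genes at this dose were 34.4% for higher and 33.1% for lower, and runs of other genes were not examined. In the Ugt1a run the raised pair Ugt1a6b and Ugt1a6a is flanked by Ugt1a7c and Ugt1a5, of which the first fell and Ugt1a5 was not called (log2 fold change -0.47 ± 0.35). In the Ugt2 run all 5 tested genes were lower.

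**Figure D5:**
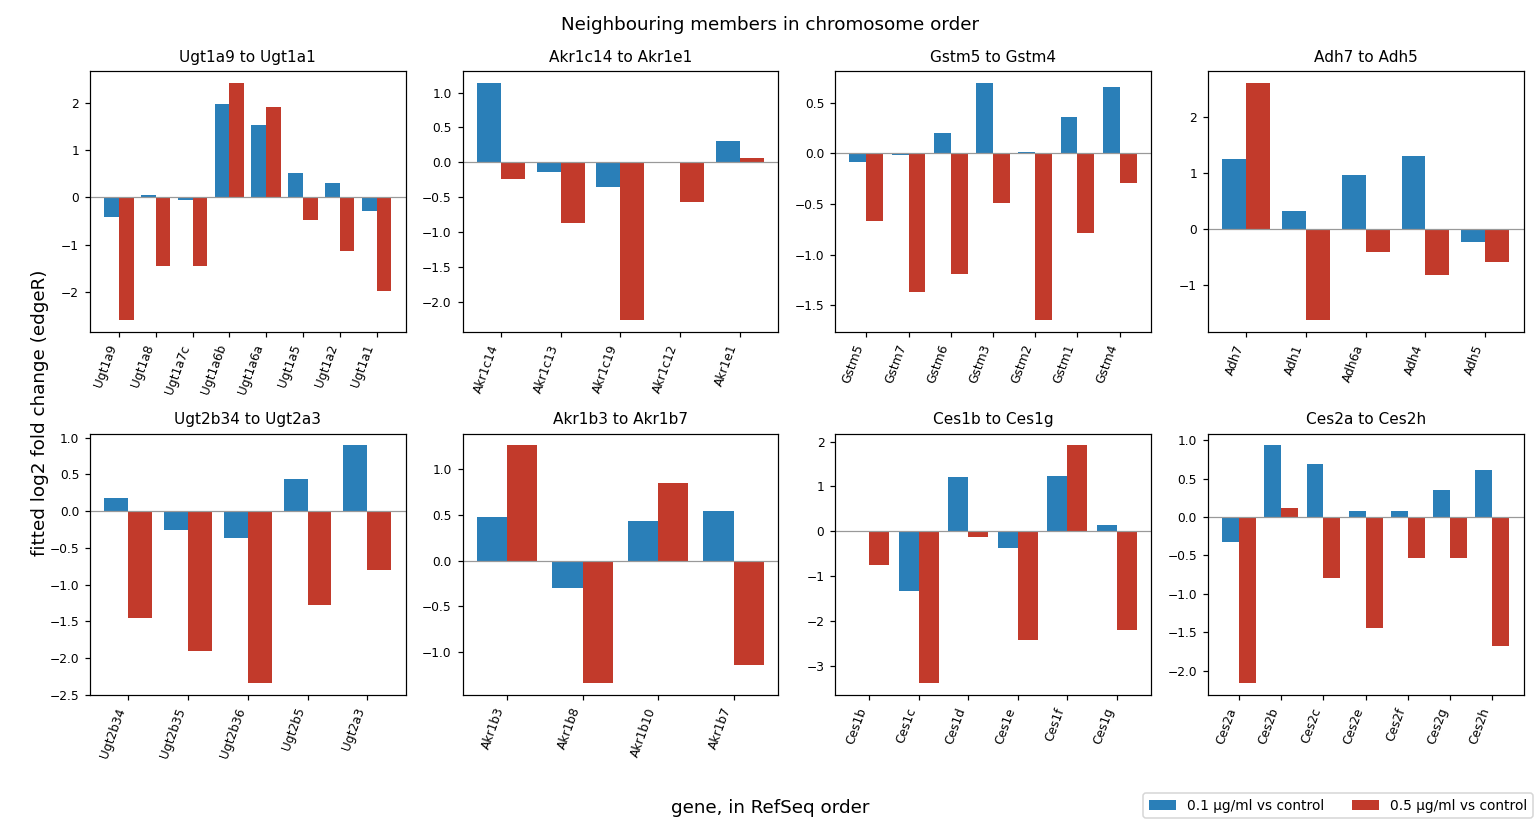
Fitted edgeR log2 fold changes against control (vertical axes, each with its own scale) at 0.1 µg/ml (blue) and 0.5 µg/ml (red) for runs with at least 4 tested genes, in RefSeq order; genes with 3 counts or fewer in a group are left out. Ugt1a6b and Ugt1a6a stand up at 1.96 and 2.42, and at 1.52 and 1.91, in a run that also holds Ugt1a1 at -0.28 and -1.96.

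Regulators of these families were examined from a list of 15 nuclear receptors and intestinal transcription factors. At 0.5 µg/ml 13 of the 15 were lower than in control and 2 higher, Rarg and Ppard (33.1% and 34.4% over all tested genes). At 0.1 µg/ml 5 were lower and 1 higher, Ppard (13.8% and 20.8% over all tested genes). Hnf4a, a main factor of enterocyte genes, had group means of 824, 686 and 354 CPM. The receptors that sense foreign compounds, Nr1i2 (PXR) at 48.1, 43.2 and 22.8 CPM and Nr1i3 (CAR) at 15.2, 19.9 and 6.09, were lower at 0.5 µg/ml, each without a call at 0.1 µg/ml. Of 7 genes of the AHR pathway, 3 were higher and 3 lower than in control at 0.5 µg/ml (34.4% and 33.1% over all tested genes). Cyp1a1 had a maximum with means of 8.18, 16.3 and 9.60 CPM, and Cyp1b1 rose from 1.53 to 8.43 and 6.63. Nqo1, which NRF2 also controls, fell from 33.4 to 19.5 at 0.5 µg/ml. Tiparp was 2.44-fold higher and Ahrr 2.30-fold lower than in control at that dose. Of 13 genes around NRF2, the regulator of antioxidant genes, 7 rose and 1 fell at 0.1 µg/ml (20.8% and 13.8% over all tested genes). At 0.5 µg/ml 5 rose and 3 fell (Nqo1, Gclc and Cat), beside 34.4% and 33.1% over all tested genes. Nfe2l2, which encodes NRF2, had a maximum at 199, 292 and 232 CPM. Whether these levels bear on the enzymes was not tested.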

How the data were processed

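Per the labels' protocols, libraries were poly-A selected, directional and read as paired ends (MGI). STAR 2.7.3a, RSEM 1.3.3, FastQC and Trim Galore stand in the submitters' processing notes, as do the builds GRCm39 and mm10, without roles. The authors deposited RSEM expected counts (estimated counts, with shared reads divided between genes) and TPM. Of the 55416 identifiers, 52083 (94.0%) matched a symbol.

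Expected counts were rounded, filtered with filterByExpr, scaled by TMM (0.964 to 1.04) and fitted in edgeR 4.0.16 (R 4.3.3) with 6 libraries, 3 groups and no covariate. This left 16975 genes and 3 residual degrees of freedom. Tests were two-sided and adjusted over all genes at 0.05. The SE came from the F statistic. The fit was tested on simulated data. CPM use the same scaling. An exact test of 2 against 2 libraries cannot go below a p of 0.333. Alternatives used DESeq2 1.42.0, limma 3.58.1, other scalings and filters, a replicate block, and 1 library left out.

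Genes, lists and tests were chosen with earlier results of these data known. Some genes of the marker and regulator lists are not reported here and were left out of the counts and sums. Named genes are those with a maximum, the 10 highest and 10 lowest called changes per comparison at 1 CPM or more, the 2 most abundant per family, the highest untested gene per family, and genes of the lists; Adh1 to Adh7 and genes in runs or windows outside this rule were named after their values were seen. Of the 94 tested genes, 55 had whole-number counts throughout. Coordinates other than promoter windows are not given, as the tables' build is not settled.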

Additional observations from a re-analysis of the deposited data

How the results depend on the processing

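The calls at 0.1 µg/ml were the least stable. Limma on filtered TPM tested 82 of these genes, against 94 in the main fit and in limma without a filter. With limma on log2(TPM + 1), log2(TPM + 0.1) and log2(TPM + 1) without a filter, genes higher than control at 0.1 µg/ml went from 44 to 28, 27 and 17, and maxima at 0.1 µg/ml from 24 to 14, 13 and 8. Without the filter, called genes at 0.1 µg/ml also went from 58 to 23, lower genes from 14 to 6, and genes higher at 0.5 than at 0.1 µg/ml from 17 to 11; the cause was not tested. Upper quartile scaling gave 22 maxima, no low-count filter 28 and DESeq2 18.

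Leaving out 1 library at a time gave 45 to 54 called genes at 0.1 µg/ml against control (30 to 45 higher, 9 to 15 lower), 74 to 83 at 0.5 µg/ml (20 to 25 higher, 52 to 58 lower), 79 to 85 between the doses (14 to 18 higher, 63 to 67 lower), 14 to 29 maxima and 0 to 0 minima. The lone library of a group was then assumed to vary like the others.

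Same-numbered libraries were not treated as pairs in the main fit. Their deviations from the group means correlated between groups at -0.04, 0.08 and 0.01 over 16975 genes. Such values cannot settle whether same-numbered libraries shared a mouse or a culture. With the replicate number as a block, called genes were 53, 81 and 81 and maxima 20.

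The 62 tested genes of the naming rule, which favours large called changes, gave 2406 single-gene results under the alternatives. Of these, 2194 stayed called in the same direction or stayed uncalled, 176 lost the call and 33 gained it. Another 3 called results changed sign, all 3 Aldh2 at 0.5 µg/ml against control (-0.019 on the log2 scale under each limma fit). Changes of sign in uncalled results were not counted. Shared reads limit single members of the Ugt1a, Gstm, Gsta and Akr1c copies.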

Other observations

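In the control and lower-dose groups, most of these enzymes differed between replicates in the same direction, which genes at large did not. With 0.1 µg/ml, 77 of the 94 tested enzyme genes were higher in replicate 1 than in replicate 2, with a median log2 ratio of 0.19 against 0.01 over all 16975 genes, and the 11 enterocyte markers had a median of 0.40. In control the order was the other way, with 19 of 94 enzyme genes higher in replicate 1 (median -0.14; 0.00 over all genes) and 1 of 11 markers (median -0.27). With 0.5 µg/ml, 46 of 94 enzyme genes and 5 of 11 markers were higher in replicate 1, with medians of 0.00 and -0.01.

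Among enzymes of related function outside the families above, Ephx1, microsomal epoxide hydrolase, rose from 97.6 to 191 CPM at 0.1 µg/ml and stood at 188 at 0.5 µg/ml. Ephx2, the soluble form, had a maximum at 31.4, 48.3 and 16.6. So did Xdh, xanthine dehydrogenase, at 10.6, 16.9 and 7.51 and Ptgr1, which acts on prostaglandins and leukotrienes, at 213, 245 and 178. In this list of 16 carbonyl and epoxide enzymes, 15 were tested and 3 had a maximum, which 3.10% of all tested genes had. At 0.5 µg/ml 4 were higher and 11 lower than control, beside 34.4% and 33.1% over all tested genes.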
